A study of Mus musculus with 3 samples.

Results

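The interleukin 1 (IL-1) family genes described here are the ligands Il1a, Il1b, Il18 and Il33, the receptor antagonist Il1rn, the receptors Il1r1 and Il1rl1, and the receptor chain Il1rap. They were found by the gene names printed in the scanner files, which gave these 8 genes of 27724 named genes, with 16 of 41174 non-control probes. The cells were C3H10T1/2, an established line of fibroblast-like cells from mouse embryos, in which transformation by chemicals is often studied. One group was left untreated, 1 received hexavalent chromium, Cr(VI), at 0.01 uM and 1 received it at 1 uM, with 3 flasks and 1 array per group. Exposure began 24 h after 2000 cells had been seeded per flask and lasted 48 h. The cells were then kept in fresh medium, trypsinized after 15 days, and split between a soft agar assay and RNA isolation. The labels do not say whether the 3 flasks were pooled for RNA, so each value is 1 array, no test between conditions was possible, and the differences between cultures are not known.

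IL-1 family cytokines are alarm and inflammatory signals that act on cells nearby. IL-1 alpha and IL-1 beta bind IL-1 receptor 1, which then recruits the accessory chain encoded by Il1rap and signals through MyD88, IRAK kinases and NF-kappa B. The receptor antagonist encoded by Il1rn occupies the same receptor without recruiting that chain. IL-33, a nuclear alarmin of stromal and barrier cells, binds ST2, the product of Il1rl1, which uses the same accessory chain. Il1rl1 makes a transmembrane form and, from an earlier transcript end, a soluble form that binds IL-33 without signalling.

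The probes that carry the results are shown first, 5′ to 3′ as the array files print them. The Il1rn probe that spans an intron and the Il1rl1 probe that spans an intron are given whole, at 60 bases each. For probes that lie in 1 stretch of the genome, the first 30 bases are given.
Il33, NM_133775: tcgtacggctgtaacaggtataattgtttc
Il1rn, NM_001039701, in 1 stretch: tttcttgaccattcattttatcacttctaa
Il1rn, NM_001039701, across an intron: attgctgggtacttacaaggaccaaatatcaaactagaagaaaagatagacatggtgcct
Il1rl1, NM_001025602, transmembrane form: tgaccttatttgcttaccagttacaggtaa
Il1rl1, NM_010743, soluble form: ctctgtaacaggatcttttgtctagatttc
Il1rl1, NM_010743, across an intron: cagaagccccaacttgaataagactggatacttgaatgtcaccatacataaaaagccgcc
In mm9 coordinates of the array files, the Il33 probe lies on chromosome 19 from 30034990 to 30035049 and the Il1rn probe in 1 stretch on chromosome 2 from 24206125 to 24206184. The Il1rn probe across an intron reaches from 24203035 to 24204055. On chromosome 1, the probe of soluble Il1rl1 lies from 40504769 to 40504828 and that of transmembrane Il1rl1 from 40521952 to 40522011, which is 17.2 kb further along the same strand. No exon or UTR annotation of that build was used here.

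Levels below are log2 signals minus the 75th percentile of all probes on the same array, so a level of 0 is as bright as that percentile. On this scale the lowest detected level was -2.98 on the untreated, -2.11 on the 0.01 uM and -2.80 on the 1 uM array. Levels of undetected probes shift with this floor, so steps between them are not to be read as an order of doses. The standard error (SE) beside a difference is the scanner software's own error model for the spots and leaves out differences between cultures. Of the 16 probes, 7 were well above background on every array, 2 on some arrays only and 7 on none, and 0 were saturated. Over all probes, the share well above background was 41.8% on the untreated, 36.4% on the 0.01 uM and 41.5% on the 1 uM array. Of 12 fibroblast markers, 11 were detected on the untreated and 0.01 uM arrays and 10 on the 1 uM array, where Thy1 was missing (at least 50.2-fold lower). Of 13 macrophage and leukocyte markers, 3 were detected on the untreated and 0.01 uM arrays (Cd14, Cd68 and Lyz2) and 4 on the 1 uM array, with Aif1 added. Of 7 mast cell and basophil markers, 0 were detected on any array. In RNA from a whole culture, fewer cells that express a gene and less RNA per cell cannot be told apart.

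**Figure D1:**
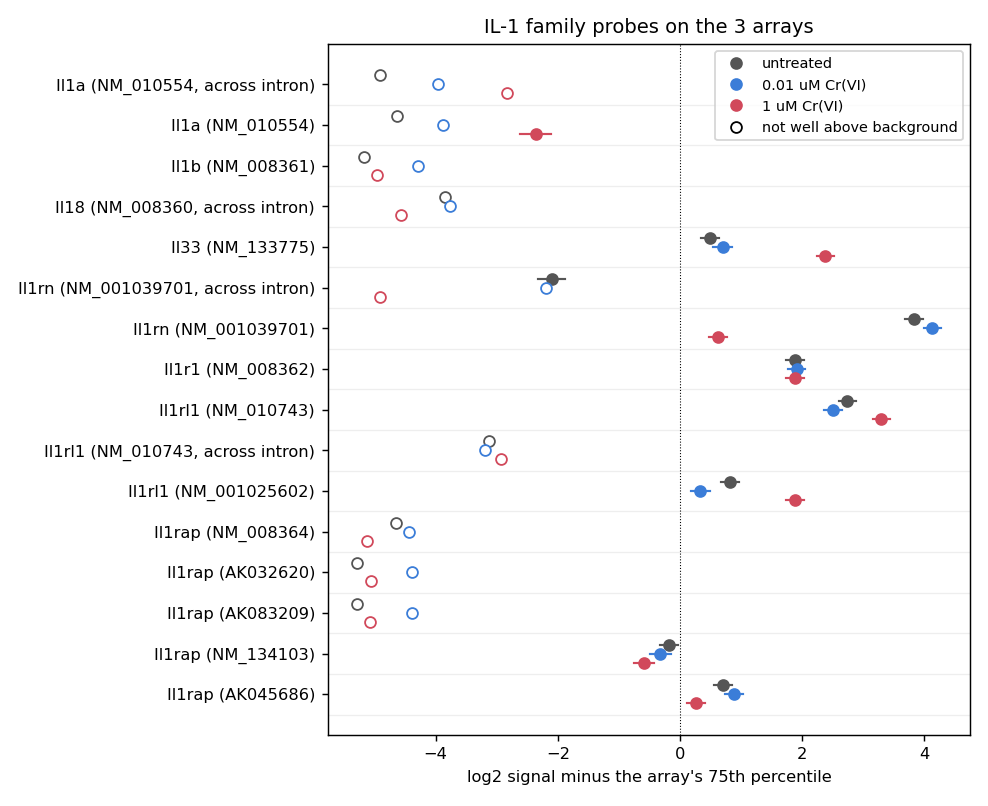
Level of each of the 16 IL-1 family probes on the 3 arrays, as log2 signal minus the array's 75th percentile. Filled points are well above background and carry the technical SE, and open points are not; the 1 uM point stands to the right of the others for Il33 and both detected Il1rl1 probes and to the left for Il1rn.

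At 1 uM, the genes at least 2-fold from the untreated array were Il33, which was higher, and Il1rn, which was lower. A gene is represented here by its brightest probe, and 6 of the 8 genes could be compared, since 2 had no probe well above background on either array. The share of all 12450 compared genes at least 2-fold higher was 5.57%, the share at least 2-fold lower was 4.86%, and that in either direction was 10.4%. With 1 member in each direction, no more than that can be read from the count. The same split over all genes depends on scaling: 53.4% of the genes past 2-fold were higher in the main setting, 63.3% with loess scaling, 94.7% with spike-in scaling and 39.2% with normexp background correction. At 0.01 uM, 0 of 5 compared member genes were at least 2-fold apart, where 0.26% of all 11915 compared genes were higher and 0.168% lower, or 0.428% in either direction. By probe, 0 of 8 compared were past 2-fold at 0.01 uM, beside 0.29% higher, 0.162% lower and 0.452% in either direction over 17257 probes. The 0.01 uM split over all genes also moved with scaling: 60.8% of the genes past 2-fold were higher in the main setting, 48.3% with the 75th percentile of detected probes, 72.3% with quantile normalization and 92.8% with spike-in scaling.

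Among the ligands, Il33 had a level of 0.50 on the untreated array, 0.70 at 0.01 uM and 2.38 at 1 uM. The 1 uM array is the high one, and the other 2 lie close together. The difference at 1 uM was 1.89 on the log2 scale (technical SE 0.21), which is 3.70-fold higher. At 0.01 uM it was 0.21 (technical SE 0.21), so on the main scale these arrays do not differ beyond the spot error. Spike-in scaling puts the 0.01 uM difference at 0.51. Of 18096 probes compared at 1 uM, 99 had a larger rise. Over the other scalings and background corrections the Il33 difference at 1 uM ranged from 1.74 to 2.57 and was past 2-fold in each of them.

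Il1a, whose product is active as a precursor and is released from damaged cells, had 2 probes close to background. The brighter one stood at -4.63 on the untreated array, -3.89 at 0.01 uM and -2.36 at 1 uM, and only the last was well above background. Against the lowest detected signal of the untreated array, Il1a was at least 1.53-fold higher at 1 uM, which does not reach 2-fold. The other Il1a probe, which spans an intron, had levels of -4.91, -3.96 and -2.84 in the same order and was well above background on none. That second probe therefore gives no fold and no order of doses. The measured difference of the brighter probe was 2.26 (technical SE 0.97), and with normexp it was 0.66, so its size is poorly known.

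Il1b, the ligand of activated macrophages, and Il18, which needs cleavage by an inflammatory caspase, were not well above background on any array. Each is printed at 10 spots per array, which gives a view of the spot spread. The Il1b spots had medians of -5.15 on the untreated array, -4.30 at 0.01 uM and -4.95 at 1 uM, with SDs from 0.093 to 0.14. On the untreated array 1 of the 10 Il1b spots was an outlier by the scanner software and was left out. The Il18 spots ran from -4.92 to -2.49 with a median of -3.67 on the untreated array, from -4.40 to -2.93 with a median of -3.83 at 0.01 uM, and from -5.07 to -3.01 with a median of -4.74 at 1 uM. The 3 ranges overlap, and 1 of 10 Il18 spots on the untreated array and 0 on the others were well above background. No fold is given for either gene.

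The receptor antagonist Il1rn showed the largest difference among the family's detected probes. Its probe in 1 stretch of the genome had a level of 3.83 on the untreated array, 4.14 at 0.01 uM and 0.63 at 1 uM. The 1 uM array stands far below the others. The difference at 1 uM was -3.20 (technical SE 0.21), or 9.19-fold lower, and 27 of 18096 compared probes had a larger fall. Against the 0.01 uM array Il1rn was 11.4-fold lower at 1 uM, with a difference of -3.51 (technical SE 0.21). Between 0.01 uM and untreated the difference was 0.30 (technical SE 0.20), and spike-in scaling puts it at 0.61.

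The second Il1rn probe, across an intron, was close to background and was also lower at 1 uM than on the untreated array. It had a level of -2.10 on the untreated array, where it was well above background, -2.19 at 0.01 uM and -4.92 at 1 uM, where it was not. Only a bound can be given, and Il1rn was at least 1.63-fold lower at 1 uM by this probe. Both probes therefore put the 1 uM array below the untreated one, and only the brighter one gives a size. The dimmer probe was not well above background at 0.01 uM either, so it does not order the doses. Over the other scalings and background corrections, the difference of the brighter probe ranged from -3.20 to -2.52.

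**Figure D2:**
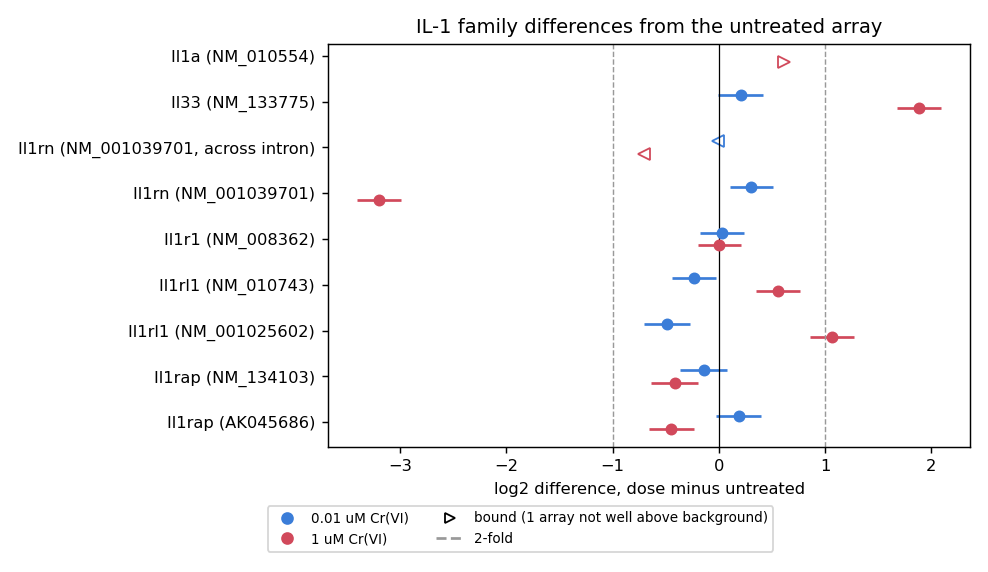
Log2 difference from the untreated array at 0.01 uM and 1 uM for the 9 probes compared at 1 uM, with the technical SE; open triangles are bounds where 1 array was not well above background and point to where the value may lie, and dashed lines mark 2-fold. At 1 uM Il33 (1.89) and transmembrane Il1rl1 (1.06) lie beyond the upper line and Il1rn (-3.20) beyond the lower one.

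Il1r1, the signalling receptor for IL-1 alpha and IL-1 beta that Il1rn blocks, was level across the arrays. Its single probe stood at 1.88 on the untreated array, 1.91 at 0.01 uM and 1.89 at 1 uM. The differences were 0.03 at 0.01 uM and 0.01 at 1 uM (technical SE 0.21 and 0.20). These are well within the spot error, although spike-in scaling alone puts the 1 uM difference at 0.69. On the main scale the receptor transcript and its antagonist thus had different values at 1 uM, 0.01 against -3.20.

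Il1rl1, the IL-33 receptor gene, had a detected probe for the transcript of each form, and the 1 uM array was highest by both. The probe of the transmembrane form had a level of 0.82 on the untreated array, 0.33 at 0.01 uM and 1.88 at 1 uM. Its difference at 1 uM was 1.06 (technical SE 0.21), or 2.09-fold higher, and it was 2.92-fold higher at 1 uM than at 0.01 uM. The lowest value over the other settings was 1.00, with normexp, so its side of 2-fold is held by a thin margin. At 0.01 uM the same probe was lower than on the untreated array by 1.40-fold, with a difference of -0.48 (technical SE 0.22), which spike-in scaling reduces to -0.18.

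The probe of soluble Il1rl1 had levels of 2.74, 2.51 and 3.30 on the untreated, 0.01 uM and 1 uM arrays. It was 1.47-fold higher at 1 uM (difference 0.56, technical SE 0.20) and 1.18-fold lower at 0.01 uM (difference -0.24, technical SE 0.20). The 3 arrays stand in the same order as for the transmembrane form, with smaller gaps. Spike-in scaling, though, turns the 0.01 uM difference of the soluble probe to 0.07 and puts its 1 uM difference at 1.24, past 2-fold. The difference at 1 uM was larger for the transmembrane probe by 0.51 (technical SE 0.29), which is under 2 such SEs. Between the doses it was larger by 0.75 (technical SE 0.30). With 1 array per dose this says that the probes differed on these arrays, and no more about the conditions. Since Il1rl1 is counted by its brightest probe, which is that of the soluble form, it is not among the genes past 2-fold above; among probes, 2 of 9 compared at 1 uM were at least 2-fold higher and 1 lower, where 5.29% and 4.71% of all 18096 compared probes were, 10% in all.

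The third Il1rl1 probe, across an intron upstream of both other probes, was not well above background on any array. It had levels of -3.13, -3.20 and -2.93 in the same order, and it gives no fold. Its printed sequence overlaps neither of the other probes, which lie 6.43 kb and 23.6 kb further along. Since no exon annotation was used, these probes do not settle which forms of Il1rl1 were present.

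Il1rap, the chain shared by the IL-1 and IL-33 receptors, was slightly lower at 1 uM by both of its detected probes. The probe of the transcript AK045686 had levels of 0.71, 0.89 and 0.26 on the untreated, 0.01 uM and 1 uM arrays. The probe of NM_134103, the transcript of a soluble form, had levels of -0.17, -0.32 and -0.59. The differences at 1 uM were -0.45 and -0.42 (technical SE 0.21 and 0.22), or 1.36-fold and 1.34-fold lower, neither past 2-fold. Spike-in scaling turns both, to 0.24 and 0.27. At 0.01 uM the probes went apart, at 0.19 and -0.14, each within the spot error. The other 3 Il1rap probes, including that of NM_008364, the transcript of the transmembrane form, were not well above background on any array, with levels from -5.29 to -4.39. The detected AK045686 probe lies 1.06 kb from the NM_008364 probe and 15.7 kb from the NM_134103 probe. Without exon annotation, these probes do not settle which forms of the chain were present.

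**Figure D3:**
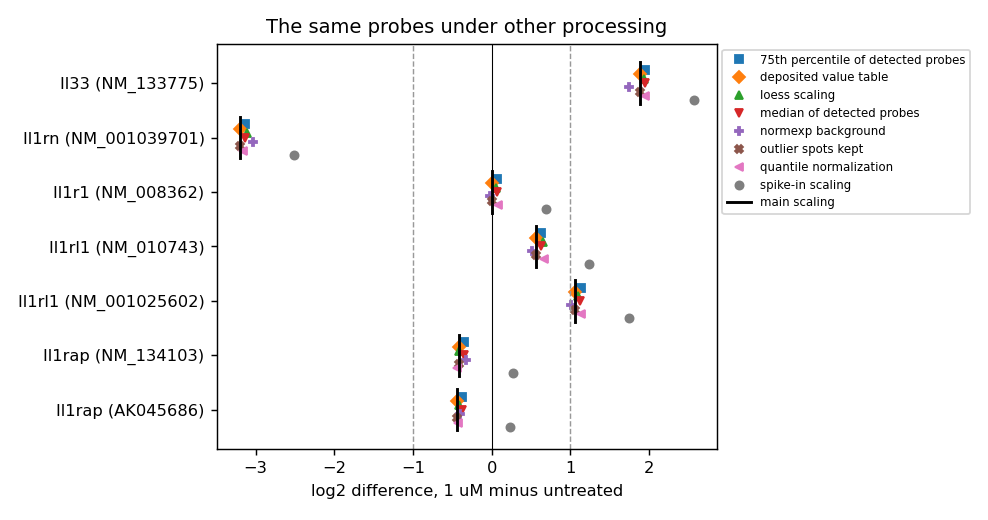
Log2 difference at 1 uM against untreated for the 7 probes detected on all arrays, in the main setting (black bars) and under 8 other scalings, background corrections or spot choices. Spike-in scaling moves every probe upward by about the same amount and turns Il1rap to the right of 0; the other points lie close to the bars.

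Promoter sequences were read because Il33 and Il1rn, among probes detected on all arrays, had the largest differences in opposite directions at 1 uM. The 250 bases before each RefSeq start (GRCm38.p6) were searched on both strands for AP-1 (TGANTCA), the interferon-stimulated response element, the gamma-activated sequence (TTCNNNGAA), the kappa B consensus and the TATA box (TATAAA). These occur in 6.75%, 2.98%, 7.02%, 3.90% and 12.4% of 32851 promoters of the same length. No 2 of the printed matches overlap. All 8 member genes had an entry in the RefSeq promoter table, with 13 starts in all. The first Il1rn start, whose window lies on chr2:24336610-24336859 (plus strand), was the 1 of 3 with any match, an AP-1 match from 141 to 135 bases before the start, in capitals.
Il1rn, first start: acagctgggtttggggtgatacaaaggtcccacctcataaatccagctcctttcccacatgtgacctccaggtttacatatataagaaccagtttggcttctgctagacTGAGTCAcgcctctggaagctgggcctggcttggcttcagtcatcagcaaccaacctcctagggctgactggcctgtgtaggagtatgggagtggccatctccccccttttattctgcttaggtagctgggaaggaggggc
The second Il33 start, with its window on chr19:29945540-29945789 (plus strand), holds a TATA match from 29 to 24 bases before the start and none of the other motifs.
Il33, second start: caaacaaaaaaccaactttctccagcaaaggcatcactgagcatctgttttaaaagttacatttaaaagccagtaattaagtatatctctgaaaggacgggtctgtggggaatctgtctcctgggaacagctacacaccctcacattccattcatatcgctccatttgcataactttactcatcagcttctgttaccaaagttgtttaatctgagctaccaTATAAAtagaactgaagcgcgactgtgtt
Of the others, Il1a holds an AP-1 match and a TATA match, Il1b a TATA match, Il18 a TATA match on the other strand, the first Il33 start a TATA match, and 1 of 2 Il1r1 starts a kappa B match. The starts of Il1rl1 and Il1rap hold none of these letters in this window. A match describes the letters and not the use of a site, and the start used in these cells is not known.

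Genes with a pattern like the members' were taken by the distance between their levels on the 3 arrays, each centred on its own mean, among 9526 genes detected and unsaturated on all of them. Nearest to Il1rn were Fbln1, a matrix glycoprotein gene (distance 0.011), Col2a1, a cartilage collagen gene (0.034), and Rgcc, a cell cycle regulator gene (0.040), each more than 3 log2 units lower at 1 uM, at -3.19, -3.17 and -3.16. Nearest to Il33 were Zyg11b, Usp17la and Snhg1, with differences at 1 uM of 1.86, 1.86 and 1.81. Nearest to transmembrane Il1rl1 were Sfrp4, a secreted Wnt modulator gene, Zfp329 and Dock4, which were lower at 0.01 uM by differences of -0.52, -0.42 and -0.55 and higher at 1 uM by 1.07, 1.10 and 1.05. With 3 arrays, many genes share a pattern, and nearness says only that.

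The other genes of the pathway were taken from 5 lists. Among 13 further family ligands, receptors and decoys on the array, 2 could be compared at 1 uM. Il18bp, the secreted binding protein that neutralises IL-18, had levels of -1.82, -2.63 and -0.43 on the untreated, 0.01 uM and 1 uM arrays and was 2.62-fold higher at 1 uM, with a technical SE of 0.25 on a log2 difference of 1.39. Another Il18bp probe was detected at 1 uM and not on the untreated array. It was higher by a bound of at least 1.97 on the log2 scale. The 0.01 uM signal of the brighter probe was not well above background. Il18rap, a chain of the IL-18 receptor, was at least 1.30-fold higher. The IL-1 decoy receptor gene Il1r2 and the IL-36 group genes (Il1f5, Il1f6, Il1f8 and Il1f9) were among the 11 not well above background on either array.

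Most genes of the signalling chain below the receptors were detected. Of 15 compared genes for adaptors and kinases of the receptor, 0 were called at least 2-fold apart at 1 uM by their brightest probe, beside 10.4% of all genes, and nothing about the list is read from so small a count. For 2 of the 15, Irak4 and Map3k7, only a bound could be given, and Irak1bp1 and Irak3 were not well above background on any array. In this list the median over 13 detected on both arrays was -0.17, against -0.04 over 11329 genes. Myd88, the adaptor of both receptors, had levels of 2.48, 2.73 and 2.32. The largest difference was that of Map3k8, a kinase of the ERK branch, at -0.90, and it was 2.01-fold lower at 1 uM than at 0.01 uM. The 2 brightest members, Tab1 and Tollip, differed by -0.27 and -0.32, with another Tollip probe at -0.79. Of 15 compared NF-kappa B factors and inhibitors, 0 were at least 2-fold apart by their brightest probe, again beside 10.4% of all genes, with a median of -0.11. The brightest were Nfkbia, the inhibitor induced by NF-kappa B itself, at -0.79, and Rela at -0.33 (another probe at -0.58). For Nfkb1 the brightest probe was at -0.36, while 2 dimmer probes were at 1.57 and 1.10, and for Chuk a dimmer probe was at 1.91 beside 0.67, so these genes are uncertain.

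Of 12 compared genes for processing and release of the cytokines, 0 were at least 2-fold apart at 1 uM, beside 10.4% of all genes, with a median of -0.36. Their brightest members were Ctsb, a lysosomal protease gene, at -0.37 (another probe at -1.18), and Hax1, at -0.34. S100a13, a partner in the release of IL-1 alpha, differed by -0.95 and was 2.33-fold lower at 1 uM than at 0.01 uM. Gsdmd, a pore-forming gene, differed by 0.64. Casp1, Nlrp3 and Pycard, the core of the inflammasome that matures IL-1 beta and IL-18, were not well above background on any array. Gsdme stood at -0.27 by its brightest probe, while 2 dimmer probes were detected at 1 uM and not on the untreated array. These were higher by bounds of at least 0.71 and 1.55, so Gsdme is uncertain.

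Genes known to respond to IL-1 in fibroblasts went several ways at 1 uM. Of 28 compared, 6 were at least 2-fold higher (21.4%, beside 5.57% of all genes) and 1 lower (3.57%, beside 4.86%). The median was 0.25 over 24 genes detected on both arrays. The higher ones were Saa3, an acute-phase gene (40.5-fold), the stromelysin gene Mmp3 (7.15-fold), the chemokine gene Cxcl10 (6.15-fold), the collagenase gene Mmp13 (5.38-fold), the chemokine gene Ccl5 (5.31-fold) and the growth factor gene Csf2 (at least 2.12-fold). On the untreated array Saa3 (-2.04), Mmp3 (-1.83), Cxcl10 (-2.36) and Mmp13 (-2.69) lay near the lowest detected level of -2.98. The technical SEs of their log2 differences were 0.27, 0.24, 0.33 and 0.32. Their folds are thus less well known than that of Ccl5 (untreated level 2.16, technical SE 0.20). Cxcl10 and Ccl5 are also interferon response genes. Many classical members were within 2-fold by their brightest probe. Il6 differed by 0.21, Ptgs2 by 0.23, Lcn2 by 0.32, Vcam1 by 0.05 (another probe at -0.95) and Cxcl1 by -0.51. Ccl7 was just under 2-fold at 0.92, with another probe at 1.02. Ccl2, saturated at 1 uM, was higher by at least 0.92, so its side of 2-fold is not known. The list was drawn up with the values of several of these genes known, so its share is a description.

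**Figure D4:**
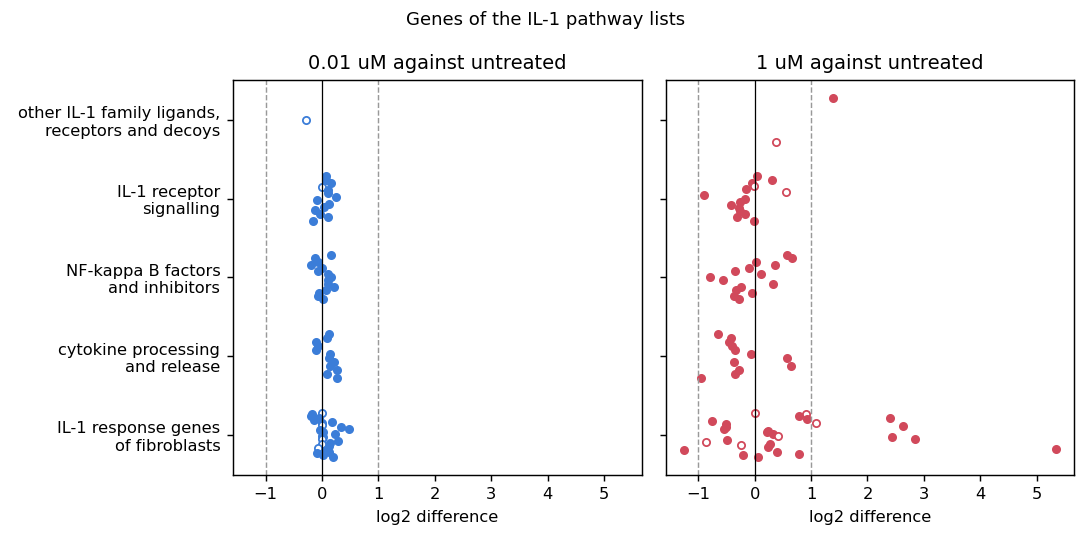
Log2 differences from the untreated array of the compared genes in the 5 pathway lists, at 0.01 uM (left) and 1 uM (right); open points are bounds or saturated spots, set to 0 where the bound allows no fold, and dashed lines mark 2-fold. At 0.01 uM every point lies between the lines, and at 1 uM the points past them are 6 higher and 1 lower response genes and Il18bp.

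At 0.01 uM, 0 of 68 compared genes of the 5 lists were at least 2-fold apart from untreated, beside 0.428% of 11915 genes. With so small a share over all genes, nothing about the lists is read from that count. The median over 61 list genes detected on both arrays was 0.08, against 0.06 over 10721 genes. The 7 member probes detected on every array lay between -0.48 and 0.30 at this dose. Between the doses, 1 of 6 compared member genes, Il33 (3.21-fold), was at least 2-fold higher at 1 uM and 1, Il1rn, lower, where 5.2% and 6.45% of 12059 genes were, 11.7% in all. By probe, 2 of 8 compared were higher and 1 lower, where 5.12% and 6.31% of 17356 probes were, 11.4% in all. Of the genes past 2-fold between the doses, 44.6% were higher at 1 uM in the main setting, 57.6% with the 75th percentile of detected probes, 57.7% with loess and 79.2% with spike-in scaling. Among 70 compared list genes, 8 were higher and 5 lower at 1 uM than at 0.01 uM. The higher ones were Il18bp (at least 3.21-fold) and 7 response genes, Saa3 (at least 42.6-fold), Mmp3 (7.07-fold), Ccl5 (5.50-fold), Cxcl10 (at least 5.18-fold), Mmp13 (at least 3.61-fold) and the monocyte chemokine genes Ccl2 (at least 2.13-fold, saturated) and Ccl7 (2.10-fold). The lower ones included Map3k8 and S100a13, given above, and the response genes Nos2, the inducible nitric oxide synthase gene (at least 2.23-fold), and Hp, an acute-phase gene (2.04-fold). All comparisons with untreated share its single array, so the values at both doses are not independent.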

How the data were processed

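Per the file headers, Agilent Feature Extraction 10.5.1.1 gave the deposited spot intensity values from Cy3 scans of 3 arrays on 1 slide. The headers also record detrending, background correction and surrogate values for dim spots. The deposited value table holds log2 values that equal log2 processed signal minus 1 constant per array (within 0.01 for at least 99.8% of 41167 probes, column medians -4.23, -3.96 and -4.03 for untreated, 0.01 uM and 1 uM), so its scale, centring and direction are those used here.

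Outlier-flagged and control spots were left out, log2 signals of a probe's spots were averaged, and each array's 75th percentile was subtracted. A probe counted as detected where over 50% of its spots were well above background. Where 1 of 2 arrays was not, the difference is a bound, taken from the brighter value to that array's lowest detected signal, or to the dim value if it was larger. With 1 array per group there is no p-value, and the number of arrays limits the precision. Genes of the lists were named through RefSeq accessions, symbols or synonyms, with 8104 probes keeping the file's name. Named genes were every member probe, list genes at least 2-fold apart in a comparison (at most 6 per list and direction by size), the 2 brightest of a list with none, and the 3 genes nearest to a member past 2-fold; further list genes were named for their role after their values were seen, and 1 counted list gene is not reported here by name. Members, lists and tests were chosen with earlier results of these data known. Normexp used limma 3.58.1 in R 4.3.3 with an offset of 50, and loess a span of 0.4. Spike-in scaling used 5 unsaturated controls. Levels, bounds and counts were computed in Python 3.11.15 (pandas 2.3.3, numpy 2.4.6; statsmodels 0.14.6 for loess). Simulated data with known differences were used to check how calls were counted.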

Additional observations from a re-analysis of the deposited data

Results flagged for a closer look

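The probe of transmembrane Il1rl1 was below the untreated array at 0.01 uM and above it at 1 uM, in each case by more than 2 technical SEs. Its log2 difference was -0.48 at the lower dose and 1.06 at the higher one, a gap of 1.55 between the doses. With spike-in scaling the value at 0.01 uM was -0.18, within its technical SE of 0.22, so that side of the pattern depends on the scaling. The gap was not tested, since each dose has a single array, and both values use the same untreated array.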

How the results depend on the processing

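Il33 stayed at least 2-fold higher and Il1rn at least 2-fold lower at 1 uM than on the untreated array under every scaling, background and filter alternative run, and at 3-fold. Of 246 member probe values under the alternatives, 25 moved by more than the technical SE and 0 turned among those past 2-fold; 21 of the 25 were under spike-in scaling, which shifted all detected probes by 0.68 at 1 uM and 0.30 at 0.01 uM, and 4 under normexp. For 1 uM against untreated, member genes at least 2-fold higher were 1 in the main setting, 2 without a filter on dim probes and 3 with spike-in scaling; for 1 uM against 0.01 uM they were 1, 2 and 2. Genes of the 5 lists at least 2-fold higher were 7 at 1 uM, 5 with normexp or a 3-fold threshold and 21 with spike-in scaling. At 0.01 uM they were 0, and 2 without a filter. Between the doses they were 8, and 4 with both arrays required to be detected. List genes at least 2-fold lower at 1 uM were 1, and 0 with a 3-fold threshold or spike-in scaling, 2 with quantile normalization and 4 without a filter. Between the doses they were 5, and 0 with a 3-fold threshold or spike-in scaling, 2 with loess or normexp, 3 with the median or 75th percentile of detected probes and 9 without a filter. Counts of all genes for 1 uM against untreated ran from 167 (3-fold) to 3113 (spike-in scaling) higher, beside 693, and from 175 (spike-in scaling) to 1166 (no filter) lower, beside 605. For 0.01 uM they ran from 8 to 721 higher, beside 31, and from 2 to 263 lower, beside 20, and between the doses from 172 to 1534 higher, beside 627, and from 254 to 1574 lower, beside 778. The alternatives on counts of all genes were added after seeing the data. No paired analysis was possible because each group has 1 array. Signal over background limits Il1a, Il1b, Il18 and the dim probes of Il1rn, Il1rl1 and Il1rap, and the causes of the moves were not tested.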

Other observations

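Markers of other cell types were few on these arrays, and their part in the IL-1 family differences was not tested. Krt19, a keratin gene of simple epithelia, was detected on the 1 uM array only, with levels of -5.05, -4.20 and -1.71 on the untreated, 0.01 uM and 1 uM arrays. Cdh5, an endothelial cadherin gene, was also detected there only, at -4.01, -3.80 and -1.10. Of 7 epithelial markers the other 6 were not detected on any array, and of 6 endothelial markers Vwf was detected on all of them. Gata3 was the 1 of 8 lymphocyte markers detected, on every array.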
